A study of Mus musculus with 8 samples.

Results

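The genes described here are 10 regulators and receptors of the T helper 1 (Th1) program, read in regulatory T (Treg) cells of the mouse large intestine. They were chosen by name as the rows of the deposited count table for Tbx21, Eomes, Runx3, Ifng, Ifngr1, Ifngr2, Il12rb1, Il12rb2, Stat4 and Cxcr3. All 10 were found among 19191 gene rows, and all 10 passed the filter on low counts that left 14274 genes for testing. The Treg cells, suppressive CD4 T cells that depend on the transcription factor Foxp3, came from the lamina propria of C57BL/6 mice and were isolated by flow cytometric sorting, and their ribosome-depleted RNA was sequenced. The KO group (Ahrf/- Foxp3Yfp-Cre, 2 libraries) carried 1 floxed and 1 null allele of Ahr, which encodes the aryl hydrocarbon receptor, a ligand-activated transcription factor. The WT group (Ahrf/+ Foxp3Yfp-Cre, 2 libraries) carried 1 floxed and 1 intact allele, so WT Treg cells kept 1 working copy and are not the wild type of both alleles. Both groups expressed the Cre recombinase from the Foxp3 locus, which acts in Treg cells. Other cells of KO mice carried the null allele too, so effects within Treg cells and effects of the surrounding cells cannot be told apart. The labels give no age, sex or number of animals per library, so the spread behind each p-value is that of these libraries and may be technical.

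In a Th1 response, interleukin-12 binds a receptor made of the chains encoded by Il12rb1 and Il12rb2 and activates the transcription factor STAT4. STAT4 and interferon gamma signalling induce Tbx21, which encodes T-bet, and T-bet together with Runx3 drives Ifng and Cxcr3. Interferon gamma acts through a receptor of the chains encoded by Ifngr1 and Ifngr2. In mice, a subset of Treg cells expresses T-bet and CXCR3 and is found where Th1 cells respond.

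The libraries held between 26862922 and 62402450 gene counts. Replicate 2 was the deeper library in both genotypes and carried more counts of Lars2, at 0.724% of the KO library and 1.66% of the WT library, against 0.0633% and 0.0367% in replicate 1. Log2 ratios of KO over WT within each replicate number are therefore given beside the pooled estimates. Markers of Treg cells (Foxp3, Il2ra, Ctla4, Ikzf2, Cd4 and Cd3e) were counted in all libraries. Their summed level was 6629 and 6149 CPM in KO and 5889 and 5547 CPM in WT. CPM is a count scaled to 1000000 of the library after trimmed-mean (TMM) scaling. Of the 6 markers, 3 had higher and 3 had lower estimates in KO. Ctla4, the largest part of the sum, stood at 3773 and 3620 CPM in KO and 3196 and 3045 CPM in WT. Ahr itself, whose whole-gene count does not show whether an exon was deleted, stood at 536 and 518 CPM in KO and 581 and 539 CPM in WT.

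Tbx21, Ifng and Cxcr3 were higher in both KO libraries than in both WT libraries, and the cytokine receptor chains, Stat4, Runx3 and Eomes were not. Setting KO against WT asks whether transcripts of the Th1 program differ between gut Treg cells of the KO and WT genotypes. Of the 10 genes, 3 had log2 fold changes of 0.48 to 0.96, and the other 7 lay between -0.16 and 0.11. At a Benjamini-Hochberg adjusted p under 0.05, edgeR's quasi-likelihood test called 0 of the 10 genes, and 0% of all tested genes. At an unadjusted p under 0.05 it gave 3 of the 10 as higher, against 1.64% of all tested genes, and 0 as lower, against 1.21%. DESeq2 called 2 of the 10 higher, Tbx21 and Ifng, against 0.167% of the 17996 genes for which it gave an adjusted p. The authors' deposited table also held 2 of the 10 under 0.05, the same genes, while 0.344% of all its rows were under 0.05 and 0.162% were under 0.05 with a higher share of counts in KO. The groups did not overlap, with KO higher, in 3 of the 10 genes and in 13.5% of all tested genes, and with KO lower in 0 of the 10 and in 13.4%. The median log2 fold change of the 10 genes was 0.03, against 0.01 over all tested genes. The genes were chosen with earlier results of these data known, so these counts describe them and do not test them as a group.

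**Figure D1:**
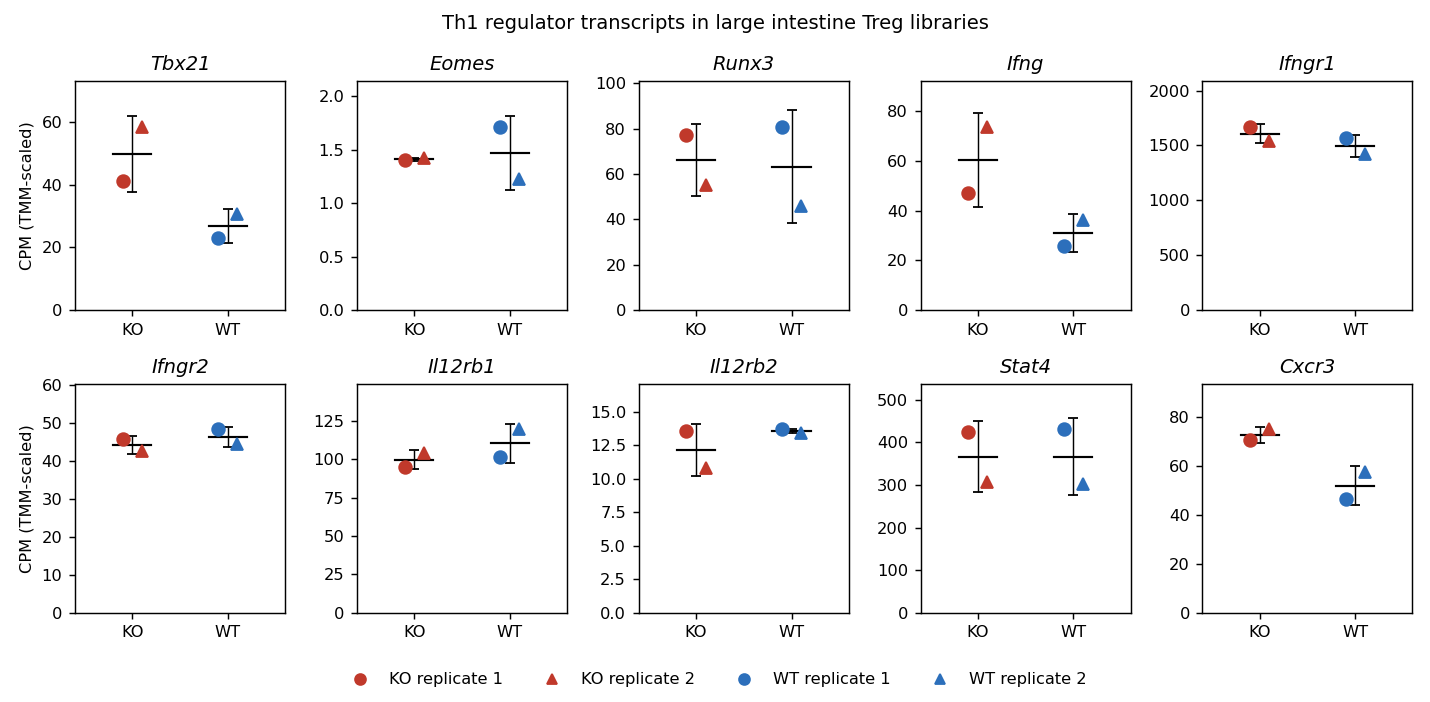
Level of each of the 10 transcripts in CPM (y axes start at 0), KO left of WT, with circles for replicate 1, triangles for replicate 2, lines for the mean and bars for the SD (n = 2 per genotype). The KO points of Tbx21, Ifng and Cxcr3 lie above both WT points, and the points of the other 7 genes overlap between the genotypes.

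Tbx21 encodes the T-box factor that defines the Th1 lineage (chromosome 11, 96959385 to 96976645, minus strand, mm9). It stood at 41.3 CPM in KO replicate 1 and 58.4 CPM in KO replicate 2, against 23.0 CPM in WT replicate 1 and 30.7 CPM in WT replicate 2. The lower KO library was thus above the higher WT library. Those levels rest on 1267 and 3087 counts in KO and on 619 and 1953 counts in WT. The ratio of KO to WT was 1.85-fold with a 95% interval of 1.27 to 2.71, a log2 fold change of 0.89 ± 0.22 (SE), and it was 0.84 within replicate 1 and 0.93 within replicate 2 on the log2 scale. Tbx21 ranked 82 by p among the 14274 tested genes, with an unadjusted p of 0.00797 and an adjusted p of 1.00 (edgeR). DESeq2 gave an adjusted p of 0.0337 and 0.0135 stood in the authors' deposited table, and over the 14 alternatives that kept genotype as the only factor the adjusted p ran from 0.0122 to 1.00.

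Ifng encodes interferon gamma, the cytokine product of the program (chromosome 10, 117878103 to 117882948, plus strand, mm9). It stood at 47.0 and 73.7 CPM in KO replicates 1 and 2, against 25.8 and 36.4 CPM in WT replicates 1 and 2. Both KO libraries again exceeded both WT libraries, and in each genotype replicate 2 was the higher one. The ratio of KO to WT was 1.94-fold (95% interval 1.22 to 3.08), a log2 fold change of 0.96 ± 0.27 (SE), with 0.86 within replicate 1 and 1.02 within replicate 2. It ranked 119 by p (unadjusted p = 0.0134, adjusted p = 1.00 by edgeR). DESeq2 gave an adjusted p of 0.0497, just under the threshold, and 0.0364 stood in the authors' deposited table, and over the same 14 alternatives it ran from 0.00235 to 1.00.

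The DESeq2 calls of both genes depended on which libraries entered. Without KO replicate 2 the DESeq2 adjusted p was 1.00 for Tbx21 and for Ifng, with log2 fold changes of 0.62 and 0.60, and without WT replicate 1 it was 1.00 for both, with 0.70 and 0.73. Without KO replicate 1 it was 0.0122 for Tbx21 and 0.00235 for Ifng, with log2 fold changes of 1.11 and 1.23. Without WT replicate 2 it was 0.0316 and 0.0118, with 1.11 and 1.22. Each of these fits sets 1 library of a genotype against 2 of the other, and the lone library is assumed to vary like the others.

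Cxcr3, a chemokine receptor of Th1 cells that T-bet induces (chromosome X, 98926874 to 98929608, minus strand, mm9), differed by less. It stood at 70.2 and 74.7 CPM in KO replicates 1 and 2, against 46.2 and 57.5 CPM in WT replicates 1 and 2. The groups did not overlap, and the KO libraries lay closer together than the WT libraries. The ratio of KO to WT was 1.40-fold (95% interval 1.10 to 1.77), a log2 fold change of 0.48 ± 0.14 (SE), with 0.60 within replicate 1 and 0.38 within replicate 2. Its unadjusted p was 0.0145, its adjusted p was 1.00 by edgeR and 0.590 by DESeq2, and that of the authors' deposited table was 0.852. Over the same 14 alternatives its adjusted p ran from 0.398 to 1.00.

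**Figure D2:**
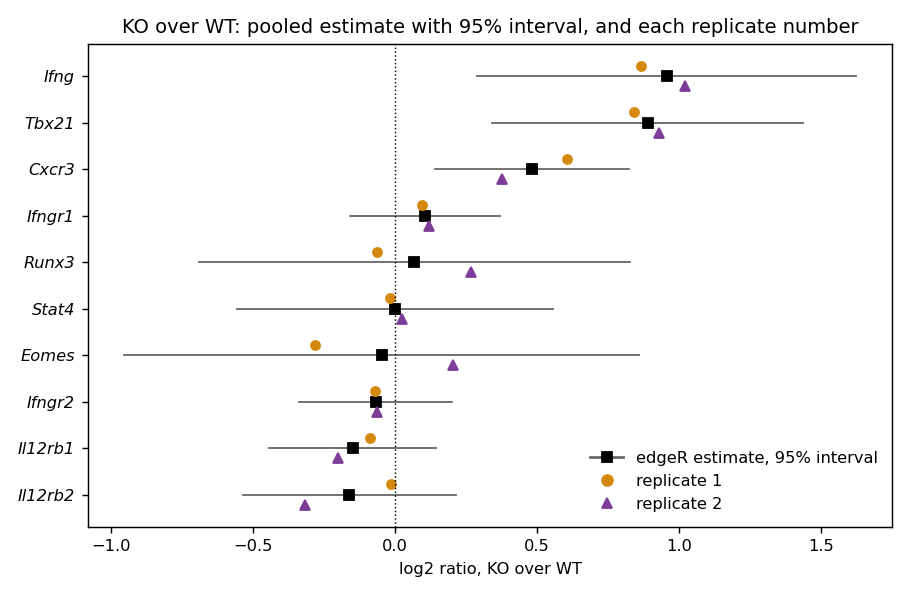
Log2 ratio of KO over WT for the 10 genes, ordered by size, with squares for the edgeR estimate, lines for its 95% interval, and the ratio within replicate 1 (circles) and within replicate 2 (triangles). The intervals of Ifng, Tbx21 and Cxcr3 lie above 0, and those of the other 7 genes include 0.

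Ifng and Tbx21 kept nearly the same proportion to each other in every library. A library held 1.14 and 1.26 Ifng reads per Tbx21 read in KO and 1.12 and 1.19 in WT, values that do not depend on the scaling of libraries. Cxcr3 reads per Tbx21 read were 1.70 and 1.28 in KO and 2.00 and 1.87 in WT, so this ratio was lower in both KO libraries. Set against the Treg factor Foxp3, a library held 16.5 and 22.6 Tbx21 reads per 100 Foxp3 reads in KO and 8.24 and 12.2 in WT. For Ifng the values were 18.8 and 28.5 per 100 Foxp3 reads in KO and 9.22 and 14.4 in WT. In bulk RNA more cells of a type and more RNA per cell cannot be told apart. These ratios thus do not say whether more cells expressed Tbx21 or each expressed more. Whether all of those cells were Treg cells was not tested.

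**Figure D3:**
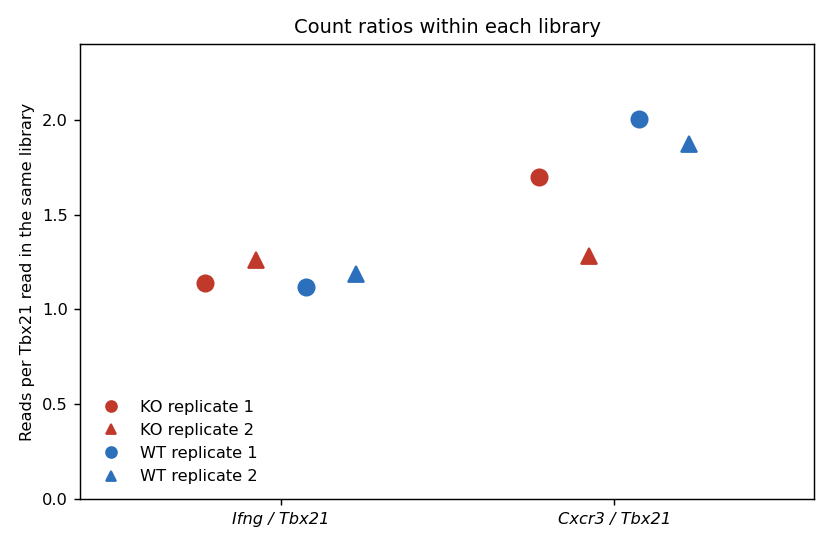
Reads of Ifng and of Cxcr3 per Tbx21 read within each library (y axis from 0), with KO libraries left of WT libraries. The ratios of Ifng to Tbx21 lie between 1.12 and 1.26 in all 4 libraries, and those of Cxcr3 to Tbx21 are lower in both KO libraries.

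The likeness of Ifng and Tbx21 extended to the difference between replicates. Log2 differences of replicate 2 from replicate 1 were 0.50 in KO and 0.41 in WT for Tbx21, and 0.65 in KO and 0.50 in WT for Ifng, while the median absolute difference over all tested genes was 0.19 in either genotype. Stat4 and Runx3 differed between replicates in the opposite direction, by -0.47 in KO and -0.51 in WT for Stat4 and by -0.49 in KO and -0.82 in WT for Runx3. After centring each gene's log2 CPM on its mean over the 4 libraries, Ifng lay at a root mean square difference of 0.07 from Tbx21, and 0% of 11326 candidate genes (outside the 10, average log2 CPM not under 1) lay nearer. Cxcr3 lay at 0.25, with 0.406% of the candidates nearer. The 3 candidates nearest to Tbx21 were Mical2 (0.09), Gas7 (0.11) and Igfbp7 (0.12). Mical2 stood at 3.19 and 4.54 CPM in KO and 2.05 and 2.53 CPM in WT, and Igfbp7 at 17.7 and 20.1 CPM in KO and 9.31 and 11.7 CPM in WT. With only 4 libraries such likeness is a description of these libraries, and the counts of Gas7 and Igfbp7 can include reads of genes that overlap them.

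The promoters of Tbx21, Ifng and Cxcr3, the genes whose KO libraries both exceeded both WT libraries, are shown with that of Il12rb2, whose groups overlapped and whose window holds the most matches. RefSeq windows (GRCm38.p6) of 250 bases before to 50 after a gene's start were found for 9 of the 10 genes, 11 windows in all. They were searched on both strands for 3 motifs, GCGTG (the core bound by the aryl hydrocarbon receptor), TCACAC (a T-box site) and TTCNNNGAA (a STAT motif). Of all 32851 such windows, 32.4% hold GCGTG, 14.5% hold TCACAC and 8.30% hold TTCNNNGAA. Among the 11 windows, 3 hold GCGTG, 2 hold TCACAC and 2 hold TTCNNNGAA. The 250 bases before the start are given 5′ to 3′ on the gene's strand, at chr11:97115332-97115581 for Tbx21, chr10:118440796-118441045 for Ifng, chrX:101734148-101734397 for Cxcr3 and chr6:67376189-67376438 for Il12rb2. Capitals mark matches on either strand.
Tbx21: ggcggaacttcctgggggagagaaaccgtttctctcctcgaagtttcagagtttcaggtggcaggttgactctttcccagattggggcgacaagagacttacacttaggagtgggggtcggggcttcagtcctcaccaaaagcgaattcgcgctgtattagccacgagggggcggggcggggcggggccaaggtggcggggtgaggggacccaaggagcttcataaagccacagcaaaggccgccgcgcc
Ifng: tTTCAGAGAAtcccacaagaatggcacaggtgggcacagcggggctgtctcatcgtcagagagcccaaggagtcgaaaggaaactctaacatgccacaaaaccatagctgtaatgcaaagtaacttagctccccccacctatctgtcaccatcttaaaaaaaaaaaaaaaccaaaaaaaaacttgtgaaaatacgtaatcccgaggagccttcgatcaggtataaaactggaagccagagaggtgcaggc
Cxcr3: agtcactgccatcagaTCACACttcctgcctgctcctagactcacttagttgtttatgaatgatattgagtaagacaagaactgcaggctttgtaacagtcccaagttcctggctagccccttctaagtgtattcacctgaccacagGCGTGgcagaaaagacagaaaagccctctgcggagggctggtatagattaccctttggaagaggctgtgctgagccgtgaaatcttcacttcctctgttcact
Il12rb2: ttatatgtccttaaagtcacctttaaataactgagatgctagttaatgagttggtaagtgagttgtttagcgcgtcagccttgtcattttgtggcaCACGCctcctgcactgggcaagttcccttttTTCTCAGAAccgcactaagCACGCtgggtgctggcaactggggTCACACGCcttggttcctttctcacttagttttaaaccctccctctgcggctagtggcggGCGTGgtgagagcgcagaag
No match of the 3 motifs lies in the Tbx21 window. Ifng has 1 STAT match, 249 bases before the start. Cxcr3 has 1 T-box match, 234 bases before the start, and 1 match of the aryl hydrocarbon receptor core, 103 bases before it. Il12rb2 has 4 matches of that core, 154, 104, 77 and 20 bases before the start, of which the third overlaps its T-box match at 80 bases, and 1 STAT match at 123 bases. Ifngr1 has 2 matches of the core, 201 and 27 bases before the start. A match is not a bound site, and these short windows leave out distant elements.

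The other T-box gene, Eomes, which encodes eomesodermin and acts beside T-bet in cytotoxic cells, had the fewest counts of the 10 genes. It had 43 and 75 counts in KO and 46 and 78 counts in WT, or 1.40 and 1.42 CPM in KO and 1.71 and 1.22 CPM in WT. The KO values lay within the WT range. On the log2 scale KO differed from WT by -0.05 (95% interval -0.95 to 0.86), an interval that spans 0.516-fold to 1.81-fold. Its sign turned to 0.05 with limma-voom.

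Runx3, the T-bet partner that also silences Il4 in Th1 cells, stood at 77.4 and 55.0 CPM in KO and 80.8 and 45.7 CPM in WT. The difference between replicates exceeded that between genotypes, and KO over WT was 0.07 on the log2 scale (95% interval -0.69 to 0.83), with -0.06 within replicate 1 and 0.27 within replicate 2. Stat4, the transducer of interleukin-12 signals, stood at 425 and 307 CPM in KO and 430 and 303 CPM in WT. Here same-numbered libraries of the genotypes nearly coincided, and KO over WT was 0.00018 on the log2 scale (95% interval -0.56 to 0.56), a value whose sign turns with DESeq2 size factors. Stat4 overlaps the predicted gene Gm3940 on the other strand, and its counts can include reads of that gene.

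Neither interleukin-12 receptor chain differed between the genotypes beyond its error. Il12rb1, the chain shared with the interleukin-23 receptor, stood at 95.1 and 104 CPM in KO and 101 and 119 CPM in WT, or -0.15 on the log2 scale (95% interval -0.44 to 0.14). Il12rb2, the chain specific to interleukin-12 and a known marker of Th1 commitment, stood at 13.5 and 10.8 CPM in KO and 13.7 and 13.4 CPM in WT. KO replicate 1 lay within the WT range and KO replicate 2 below it, and KO over WT was -0.16 on the log2 scale (95% interval -0.54 to 0.22), with -0.01 within replicate 1 and -0.32 within replicate 2. Per Tbx21 read, a library held 0.328 and 0.184 Il12rb2 reads in KO and 0.593 and 0.438 in WT. The upper bounds of both intervals, 1.11-fold for Il12rb1 and 1.16-fold for Il12rb2, lie below the lower bound of 1.27-fold for Tbx21. Both lie above the lower bound of 1.10-fold for Cxcr3, and differences between genes were not tested.

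The interferon gamma receptor chains did not differ beyond their error either. Ifngr1, the ligand-binding chain, stood at 1670 and 1545 CPM in KO and 1564 and 1424 CPM in WT, or 0.11 on the log2 scale (95% interval -0.16 to 0.37). Ifngr2, the signalling chain whose loss from the surface marks Th1 cells, stood at 45.9 and 42.5 CPM in KO and 48.3 and 44.5 CPM in WT, or -0.07 on the log2 scale (95% interval -0.34 to 0.20). The levels of both chains overlapped between the genotypes. A library held 2.75 and 2.75 Ifngr2 reads per 100 Ifngr1 reads in KO and 3.08 and 3.13 in WT, a ratio that was lower in both KO libraries.

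Among 28 further genes of the Th1 pathway, all effector products had higher estimates in KO, and signal transducers and transcription regulators had smaller values. Of the 27 genes tested, 23 were higher and 4 lower, against 52.0% higher over all tested genes, and edgeR called 0 of them, while 5 higher and 1 lower gene had an unadjusted p under 0.05, against 1.64% and 1.21% of all tested genes. DESeq2 called 2 of the 27 higher, Ccl4 and Ccl5, against 0.167% over the whole table, and the authors' deposited table held the same 2, against 0.344% of its rows. All 11 effector products were higher, with a median log2 fold change of 0.33, and in 7 of 11 cases both KO libraries exceeded both WT libraries, against the 13.5% of all tested genes. Ccl4, a chemokine that attracts T cells and macrophages, stood at 20.8 and 22.1 CPM in KO and 9.64 and 11.1 CPM in WT, with a log2 fold change of 1.04 (edgeR adjusted p = 0.421). Ccl5, a chemokine of activated T cells, stood at 11.3 and 17.9 CPM in KO and 4.51 and 5.59 CPM in WT, with a log2 fold change of 1.53 (edgeR adjusted p = 0.856). Cxcr6, a receptor for CXCL16 found on tissue T cells, stood at 380 and 301 CPM in KO and 255 and 246 CPM in WT (log2 fold change 0.44). Fasl, the ligand of the death receptor Fas, stood at 35.2 and 32.0 CPM in KO and 27.4 and 27.3 CPM in WT (log2 fold change 0.30). The KO libraries were above the WT libraries for each of these 4 genes. Cxcr6 and Fasl were not under an adjusted p of 0.05 by edgeR, by DESeq2 or in the authors' deposited table.

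Signal transducers had a median log2 fold change of 0.07, with 6 of 9 genes higher, against 52.0% over all tested genes. Il18r1, the interleukin-18 receptor chain that works with interleukin-12 in inducing Ifng, was lower in both KO libraries, as were 13.4% of all tested genes. It stood at 111 and 94.8 CPM in KO and 137 and 119 CPM in WT, a log2 fold change of -0.32 with an unadjusted p of 0.0493 and an edgeR adjusted p of 1.00. Socs1, a feedback inhibitor of interferon gamma signalling, and Ptpn2, a phosphatase, had 0.19 and 0.10, and neither reached an unadjusted p under 0.05.

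Of the 7 transcription regulators tested, 6 were higher and 1 lower, with a median of 0.15, against 52.0% higher over all tested genes. The groups overlapped in every case, while they did not overlap in 27% of all tested genes. Irf1, induced by interferon gamma, stood at 582 and 1038 CPM in KO and 556 and 654 CPM in WT. Its log2 ratio was 0.06 within replicate 1 and 0.67 within replicate 2. Zeb2, a T-bet partner in effector cells, had a pooled log2 fold change of 0.29, Bhlhe40, which promotes Ifng in Th1 cells, had 0.26, and Runx1, a relative of Runx3, had 0.15.

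Genes that interferon gamma induces had log2 fold changes closer to 0 than that of Ifng. Of 18 tested genes 12 were higher and 6 lower, against 52.0% higher over all tested genes, and the median log2 fold change was 0.06. By edgeR and DESeq2, 0 of the 18 were called, against 0% and 0.267% of all genes they tested. At an unadjusted p under 0.05 edgeR gave 0, against 1.64% of all tested genes higher and 1.21% lower. The groups did not overlap in 3 of the 18 genes, each higher in KO, a share near the 13.5% of all tested genes. Igtp and Tgtp1, interferon-inducible GTPases, had log2 fold changes of 0.20 and 0.17, the proteasome subunit Psmb8 had 0.20, and the guanylate-binding protein Gbp4 had 0.21. The values farthest from 0 were negative and came from the 2 least counted of the 18 genes, at -0.67 for the chemokine gene Cxcl9 and -0.62 for Ciita, the activator of MHC class II genes, and the groups overlapped for both. The chemokine gene Cxcl10 had -0.19, also with overlap. Cxcl9 stood at 1.21 and 0.341 CPM in KO and 1.38 and 1.04 CPM in WT, and Ciita at 4.73 and 2.35 CPM in KO and 6.93 and 3.96 CPM in WT. Igtp, the one of lowest p, stood at 330 and 304 CPM in KO and 270 and 281 CPM in WT, with an edgeR adjusted p of 1.00. The difference between the response genes and Ifng was not itself tested.

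**Figure D4:**
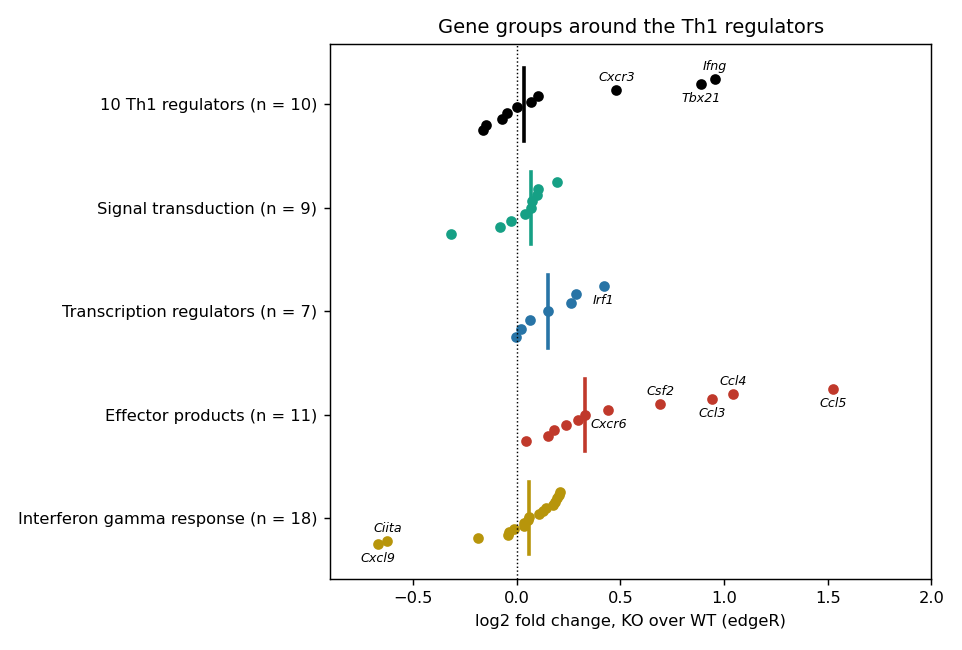
Log2 fold change of KO over WT (x axis, edgeR) for each tested gene of 5 groups, with vertical bars for the group medians and names for genes beyond 0.4 in either direction. The effector products all lie above 0, with Ccl5 at 1.53, and the 18 interferon gamma response genes centre on 0.06.

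Regulators of other T cell lineages showed no called difference by edgeR or DESeq2, which called 0% and 0.267% of all genes they tested. Of the 7 regulators, 3 were higher and 4 lower, against 52.0% higher over all tested genes. Prdm1, which encodes Blimp-1, stood at 218 and 251 CPM in KO and 199 and 212 CPM in WT (log2 fold change 0.19). It was the 1 of 7 whose KO libraries both exceeded both WT libraries, against 13.5% of all tested genes. Foxp3 had a log2 fold change of -0.06 and Rora -0.09. Gata3, the type 2 regulator that opposes T-bet, stood at 266 and 188 CPM in KO and 262 and 161 CPM in WT.

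Markers of cytotoxic T and natural killer cells, which also express Tbx21 and Ifng, had a higher sum in both KO libraries. In every library 1 gene, Nkg7, was the largest part of that sum. Without Nkg7, the sum of the other markers was lower in both KO libraries than in both WT libraries. The 9 markers summed to 45.5 and 64.1 CPM in KO and 33.8 and 41.9 CPM in WT, and of 7 tested, 4 were higher and 3 lower. Nkg7, a granule gene that Th1 cells express too, stood at 31.0 and 49.7 CPM in KO and 14.4 and 25.4 CPM in WT (adjusted p = 1.00 by edgeR and 0.208 by DESeq2, and 0.00459 as listed in the authors' deposited table). Ncr1, a defining marker of natural killer cells, was at 0 CPM in replicate 1 of both genotypes and at 0.170 CPM in KO replicate 2 and 0.0628 CPM in WT replicate 2. Cd8a stood at 1.50 and 1.32 CPM in KO and 0.968 and 1.12 CPM in WT, Cd8b1 at 4.79 and 6.17 CPM in KO and 4.54 and 4.87 CPM in WT, and Gzmk at 0.815 and 0.851 CPM in KO and 0.372 and 0.581 CPM in WT. In contrast, Gzma, a cytotoxic granzyme, stood at 1.73 and 2.23 CPM in KO and 7.97 and 4.07 CPM in WT. Its log2 fold change was -1.58, with an unadjusted p of 0.00774 by edgeR and an adjusted p of 0.105 by DESeq2. Klrb1c and Prf1, the other tested markers with lower estimates, had -0.47 and -0.15, and their groups overlapped. B cell markers summed to 16.2 and 12.2 CPM in KO and 17.0 and 18.7 CPM in WT, myeloid markers to 67.1 and 36.5 CPM in KO and 87.4 and 46.7 CPM in WT, and epithelial markers to 17.5 and 23.3 CPM in KO and 18.8 and 19.1 CPM in WT. Epcam made up most of the epithelial sum, at 12.2 and 13.7 CPM in KO and 14.7 and 14.5 CPM in WT. The epithelial keratin gene Krt8 stood at 1.01 and 3.86 CPM in KO and 0 and 0.126 CPM in WT, and DESeq2 called it higher (adjusted p = 1.00 by edgeR and 8.0e-04 by DESeq2, and 5.35e-05 as listed in the authors' deposited table). Cdh1, which encodes E-cadherin, stood at 0.847 and 1.51 CPM in KO and 0.261 and 0.628 CPM in WT, and Krt20 at 0.130 and 0.341 CPM in KO and 0.0745 and 0 CPM in WT, so both were higher in the KO libraries, and Krt18 was lower, at 1.43 and 1.53 CPM in KO and 2.01 and 2.26 CPM in WT. None of the marker genes found in the table was at 0 in all libraries, and the part of these cells in the levels of Tbx21 and Ifng was not tested.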

How the data were processed

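RNA-seq of 4 libraries, 2 per genotype, was used. The 4 ATAC-seq samples were not used here. Per the labels' protocols, ribosomal RNA was removed and 50 bp single-end reads were taken over 2 lanes. The deposited table holds raw whole-number counts per gene and library, without normalization. It also holds an adjusted p-value per gene by the authors, whose comparison is not stated and which was taken as KO against WT. The submitters' processing notes name TopHat2, DESeq and mm9. The sources used here give no counting tool, annotation or strand setting. Counts of genes that overlap another gene, among them Cxcr6, Irf1, Tgtp1, Psmb8, Cxcl10, Foxp3 and Gata3, can therefore include its reads.

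The main test was edgeR 4.0.16 (R 4.3.3), the quasi-likelihood test with only genotype in the model, filterByExpr (14274 genes kept), TMM scaling and Benjamini-Hochberg adjustment over all tested genes. It had 2 residual degrees of freedom. Log2 ratios within a replicate used a prior count of 2. Alternatives were DESeq2 1.42.0, limma 3.58.1 (voom), DESeq2 size factors, no filter, a filter of CPM of at least 2 in 2 libraries, the replicate number as a block and leaving out each library, and, chosen after seeing the data, edgeR's newer quasi-likelihood method.

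The 10 genes and all lists were chosen with earlier results of these data known. Named genes are the 10, up to 4 of lowest p per list, and the 3 nearest to Tbx21. Other named genes (Gata3, Cxcl9, Cxcl10, Ciita and single cell type markers) were chosen after their values were seen. Of the lists, Twist1, Nlrc5, Cxcl11 and Adgre1 were not analysed here, and single values of some list genes are not reported here. Depth per library (26862922 to 62402450 counts) and 2 libraries per genotype limit the precision.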

Additional observations from a re-analysis of the deposited data

How the results depend on the processing

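Tbx21, Ifng, Cxcr3 and Ifngr1 were higher in KO, and Ifngr2 and Il12rb1 lower, under all 16 alternatives. Tbx21 and Ifng were called under 6 of them each and Cxcr3 under 2. Genes called over the whole table numbered 0 in the main fit, 52 with no filter, 48 with DESeq2 and 0 to 29 over the fits that left out 1 library. Of the 10 genes, 2 were called with no filter, 2 with DESeq2 and 0 to 2 without a library, and of the further pathway genes 2, 2 and 0 to 2. The causes were not tested. Counts with DESeq2 size factors, the stricter filter, limma-voom and the newer quasi-likelihood method stayed at 0. With a replicate block, edgeR called 458 genes (3.21% of those tested), of which 3 of the 10 (Tbx21, Ifng and Cxcr3) and 8 of the pathway genes, and DESeq2 called 139 (0.862%), 3 and 6. The blocked adjusted p by edgeR and by DESeq2 was 3.50e-09 and 1.94e-08 for Tbx21, 4.42e-10 and 7.86e-11 for Ifng, and 7.33e-05 and 0.00500 for Cxcr3. The labels do not say that a number marks a shared batch. Deviations of same-numbered libraries correlated at 0.641 across genes, and the blocked edgeR fit had 1 residual degree of freedom. The interferon gamma response count was 0 under every alternative. The alternative that called most genes, edgeR with the replicate block, called 3.21% of those tested.

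Signs turned for genes near 0. Eomes had 0.051 with limma-voom, 0.011 with the newer method and -0.29 to 0.21 without a library, and the stricter filter dropped it. Stat4 had -0.0022 with DESeq2 size factors, -0.0045 with no filter, -6.3e-05 with the stricter filter, -0.0026 with DESeq2 and -0.26 to 0.28 without a library. Without a library Runx3 ran from -0.29 to 0.54 and Il12rb2 from -0.34 to 0.00019. DESeq2 size factors moved the median log2 fold change by -0.0021.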
